A study of Mus musculus with 16 samples.

Results

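Inflammatory CC chemokine ligands are small secreted proteins that draw leukocytes into tissue, and 10 of them were followed here in mouse lung: Ccl2, Ccl3, Ccl4, Ccl5, Ccl6, Ccl7, Ccl8, Ccl11, Ccl17 and Ccl22. A gene was included when the gene name printed for a probe on the array equalled one of these symbols. All 10 had a probe and passed the filter on dim probes, out of 25576 genes tested. The arrays compared whole lungs of female mice in 5 groups. The first 3 groups carried the ARF-DTR transgene, in which the Arf promoter drives a receptor for diphtheria toxin (DT), so that the toxin can reach cells in which that promoter is active. They were ARF-DTR mice given DT at 12 months of age (4 samples), ARF-DTR mice given PBS at 12 months (4 samples) and untreated ARF-DTR mice of 2 months (4 samples). Wild type mice of 12 months received DT (2 samples) or PBS (2 samples), and served to show what the toxin does without the transgene. Injections into the peritoneum, of DT at 50 µg per kg or of PBS, were spaced by 2 weeks and went on for 1 month. The 12-month and 2-month groups therefore differ in injection as well as in age.

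CC chemokines act through G protein-coupled receptors on the cells they attract. Ccl2 and Ccl7 are ligands of CCR2 and draw monocytes, Ccl3, Ccl4 and Ccl5 draw T cells, NK cells and macrophages, and Ccl6 is a product of mouse macrophages and other myeloid cells that signals through CCR1. Ccl8 of the mouse activates CCR8, Ccl11 (eotaxin) attracts eosinophils through CCR3, and Ccl17 and Ccl22, typical products of dendritic cells, are ligands of CCR4 on T helper 2 and regulatory T cells. In the lung such ligands are known from alveolar macrophages, dendritic cells, fibroblasts and epithelium. In RNA from whole lung, fewer cells of a type and less RNA per cell cannot be told apart.

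Each value is the log2 of the background-subtracted signal minus the log2 of the 75th percentile of its array, so that 0 is the 75th percentile and 1 unit is a doubling. Levels of different genes were not set against each other, because each gene was read by a different probe. The 16 arrays lay on 2 slides. PBS-treated and 2-month ARF-DTR lungs shared slide 1, in separate rows. The DT-treated ARF-DTR lungs filled one row of slide 2, and the 4 wild type lungs the other row. The 75th percentile of intensity was 873 to 1088 on slide 1 and 613 to 725 on slide 2, and the share of probes well above background was 61.9% or more on slide 1 and 55.6 to 64.7% on slide 2. Pairs of arrays differed by a median absolute log2 value of 0.262 when they lay on different slides, 0.183 between groups of a slide and 0.151 within a group. DT against PBS in ARF-DTR lungs, DT-treated against 2-month ARF-DTR lungs and the comparison of genotypes under PBS cross the slides, and there slide and group cannot be told apart. Lung identity was plain on all 16 arrays, with Sftpc, the surfactant protein of alveolar type 2 cells, at 8.55 to 9.35, and Cdh5, a junction protein of endothelium, at 3.99 to 4.61. Cdkn2a, the locus of Arf, lay at -2.18 to -1.19 in DT-treated, -2.29 to -1.79 in PBS-treated and -2.25 to -1.27 in 2-month ARF-DTR lungs, and these ranges overlapped.

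The probes of 8 members lie on chromosome 11 and those of Ccl17 and Ccl22 on chromosome 8 (build mm9). One cluster on chromosome 11 ran from Ccl2 (start 81850650) through Ccl7 (81860656) and Ccl11 (81876072) to Ccl8 (81930108), all on the plus strand. A second ran from Ccl5 (83339296) and Ccl6 (83401997) through Ccl3 (83461358) to Ccl4 (83478052), with Ccl4 on the plus strand and the others on the minus strand. Ccl22 (97274709) and Ccl17 (97335770) lie side by side on chromosome 8. The probes are 60 bases long, and the longest run of bases shared by the probes of any 2 members was 8, so these neighbours were read by distinct sequences. Ccl2 had 10 replicate spots on each array and each other member had 1. 9 members were well above background on all 16 arrays, and Ccl22 on 12 arrays, the exceptions being the 4 wild type arrays.

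**Figure D1:**
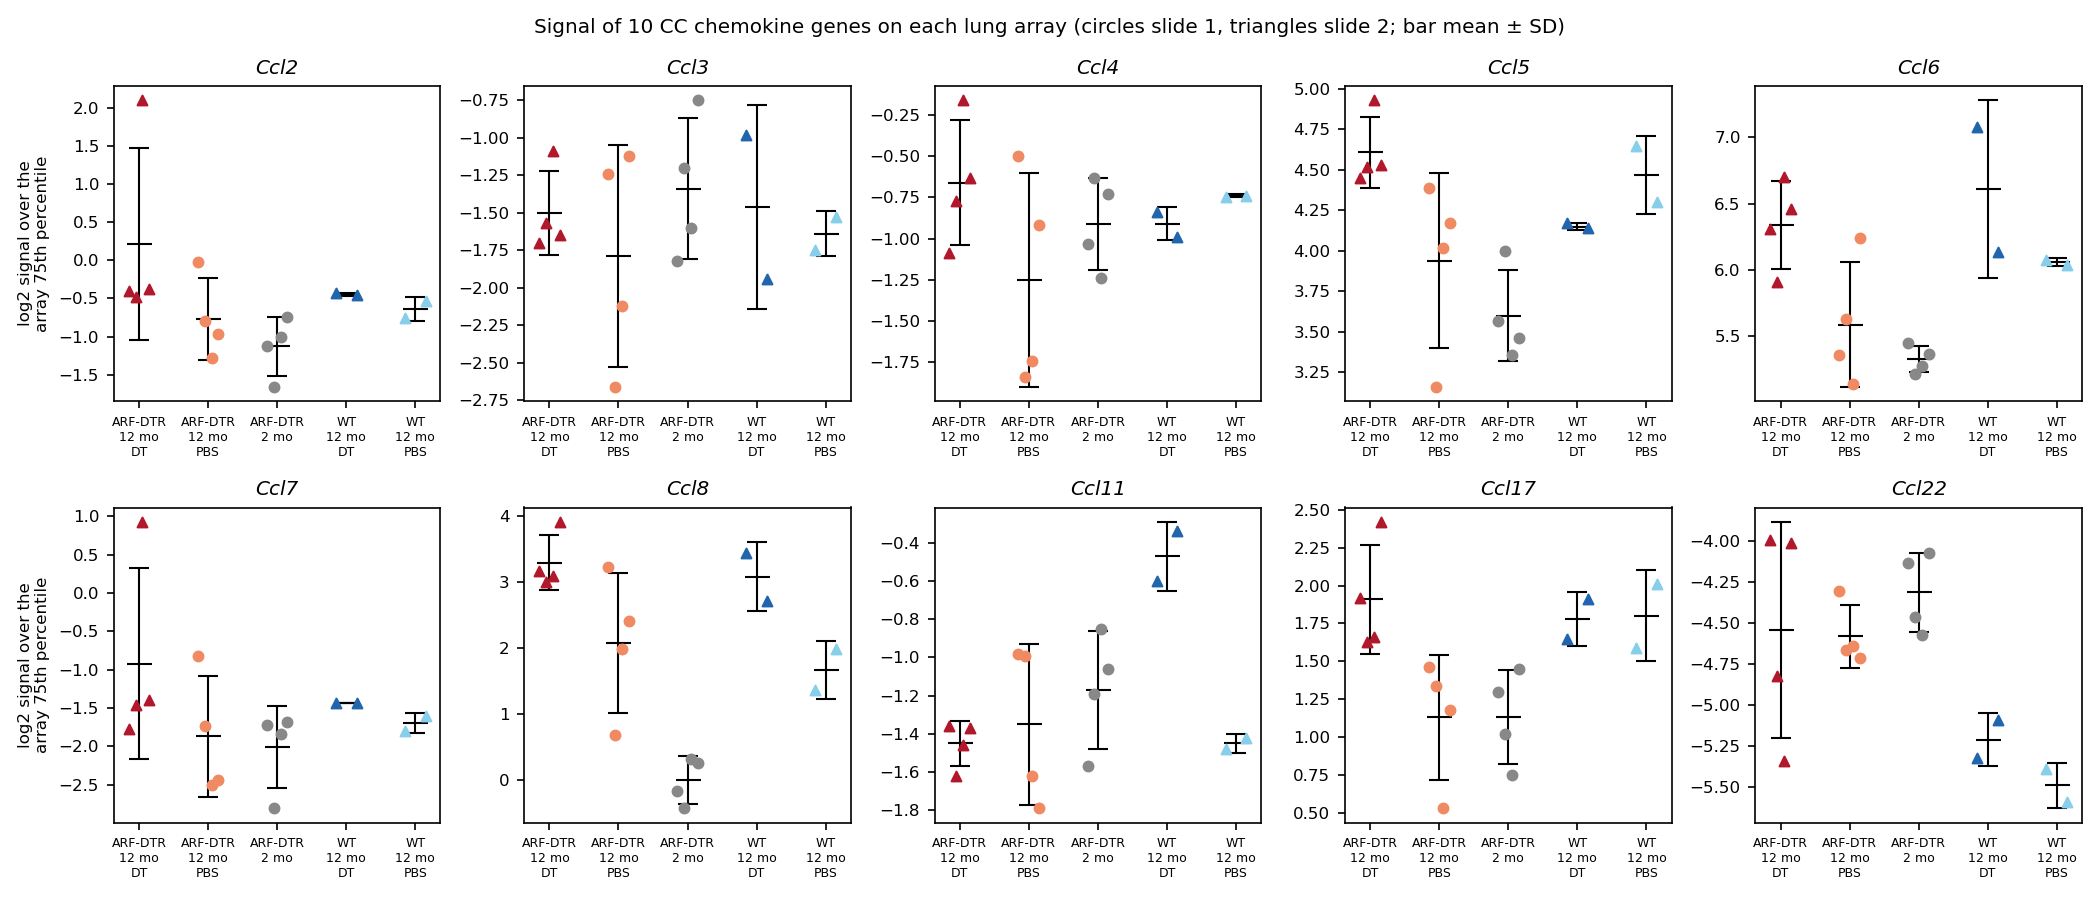
Log2 signal over the 75th percentile of the array (vertical axis) for the 10 genes on each array, by group; points are arrays (circles slide 1, triangles slide 2) and bars are the mean ± SD. Ccl8 separates all 2-month lungs, at -0.43 to 0.32, from every 12-month lung, and 1 DT-treated ARF-DTR lung stands apart in Ccl2 (2.10) and Ccl7 (0.93).

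Ccl8, the CCR8 ligand, was the member with the widest range between groups. Its level was 3.16, 3.00, 3.09 and 3.91 in the DT-treated ARF-DTR lungs, 3.22, 0.68, 1.99 and 2.41 in the PBS-treated ARF-DTR lungs, and -0.16, -0.43, 0.32 and 0.26 in the 2-month ARF-DTR lungs. It was 3.44 and 2.71 in wild type lungs with DT, against 1.36 and 1.98 in wild type lungs with PBS. Lungs of both DT groups were thus at 2.71 or above, and 2-month lungs at 0.32 or below. The PBS-treated ARF-DTR lungs ranged from 0.68 to 3.22. In the signal itself, before scaling, Ccl8 read 5280 to 10480 intensity units in DT-treated, 1716 to 9280 in PBS-treated and 727.1 to 1179 in 2-month ARF-DTR lungs.

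The 12-month PBS-treated ARF-DTR lungs were compared with the 2-month lungs to see what differs with age, on a single slide. Ccl8 was the 1 member of 10 that changed, against 6.15% of all genes tested (2.73% higher). It averaged 2.07 ± 1.06 at 12 months and 0.00 ± 0.36 at 2 months (SD, n = 4 each), a log2 difference of 2.08 ± 0.43 (SE) or 4.217-fold, with an adjusted p of 0.01293 in limma across all genes. The lowest 12-month lung, at 0.68, was above the highest 2-month lung, at 0.32. When only these 2 groups entered the fit the difference was the same and the adjusted p was 0.05751. The 2 ages were in different rows of the slide, so row and age cannot be told apart.

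The other members showed no change with age that passed the test. Ccl5 differed by 0.34 (95% interval -0.15 to 0.83) and Ccl6 by 0.26 (-0.26 to 0.78), and Ccl17 had the same mean of 1.13 at both ages. Ccl3 and Ccl4 differed by -0.44 (-1.18 to 0.30) and -0.34 (-0.94 to 0.25). Over the 10 members the median log2 difference was 0.07, beside -0.025 over all genes, and 5 were above 0. For Ccl2 (interval -0.68 to 1.41) and Ccl7 (-1.02 to 1.29) the spread between lungs was wide enough that an increase of 1 log2 unit lay inside it.

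Few genes of the surrounding pathways moved with age. Ccrl2, an atypical receptor that presents chemerin, fell (-0.26, adjusted p 0.04972). Ccr8, the receptor of Ccl8 in the mouse, differed by 0.14 (adjusted p 0.6411). Of 15 NF-kappaB genes and inflammatory inducers only Nfkb2 rose (0.30, adjusted p 0.01795). Of 11 measured genes of the type 2 axis, Irf4, a transcription factor of lymphocytes and dendritic cells, rose (0.84, adjusted p 0.03513) and Tslp, an epithelial cytokine, fell (-0.72, adjusted p 0.006144). None of the 8 other CC ligands measured passed the limma test, and their median difference was 0.43. Among cell markers, 1 of 9 for interstitial macrophages rose (C1qa, 0.55, adjusted p 0.04881), 0 of 9 for alveolar macrophages changed and 3 of 7 for NK cells fell. The summed linear level of the interstitial macrophage list, relative to the 75th percentile, was 53.96 to 64.84 at 12 months and 45.26 to 66.16 at 2 months, and its part in the Ccl8 difference was not tested.

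DT was then compared with PBS in 12-month ARF-DTR lungs, the comparison that asks what the toxin does where its receptor is carried. Of the 10 members 4 rose, Ccl5, Ccl6, Ccl8 and Ccl17, and 0 fell, while 29.3% of all genes changed and 15.8% were higher. This comparison crosses the slides. The 4 genes are described in turn, and the level in PBS-treated wild type lungs, which shared a slide with the DT-treated ARF-DTR lungs, is given beside each.

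Ccl17, the CCR4 ligand, was 1.92, 1.63, 1.66 and 2.42 in DT-treated ARF-DTR lungs, against 1.46, 1.34, 0.53 and 1.18 in PBS-treated ARF-DTR lungs. The groups did not overlap, and the log2 difference was 0.78 ± 0.23 (SE), 1.72-fold, with an adjusted p of 0.0216 in limma. Leaving out PBS replicate 3 gave a difference of 0.58 (adjusted p 0.0608), and leaving out DT replicate 4 gave 0.61 (adjusted p 0.0682). Wild type lungs were at 1.65 and 1.91 with DT, against 1.59 and 2.01 with PBS. On slide 2 the DT-treated ARF-DTR lungs therefore exceeded the PBS-treated wild type lungs by 0.11 (95% interval -0.49 to 0.71, adjusted p 0.857).

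Ccl6, the myeloid CCR1 ligand, was 6.31, 5.91, 6.70 and 6.46 in DT-treated ARF-DTR lungs, against 5.36, 5.63, 5.14 and 6.24 in PBS-treated ARF-DTR lungs. PBS replicate 4 reached into the DT range. The log2 difference was 0.75 ± 0.24 (SE), 1.683-fold, with an adjusted p of 0.03308 in limma. Wild type lungs were at 7.08 and 6.14 with DT, against 6.08 and 6.04 with PBS. The DT-treated ARF-DTR lungs were 0.29 above the PBS-treated wild type lungs (95% interval -0.35 to 0.92, adjusted p 0.6162).

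Ccl5 (RANTES), a product of T cells and NK cells, was 4.45, 4.52, 4.93 and 4.53 in DT-treated ARF-DTR lungs, against 4.39, 3.16, 4.02 and 4.17 in PBS-treated ARF-DTR lungs. The lowest DT-treated lung lay just above the highest PBS-treated lung, and the difference was 0.67 ± 0.23 (SE), 1.594-fold, with an adjusted p of 0.04071 in limma. Without PBS replicate 2, the low lung, it was 0.41 (adjusted p 0.08349). Wild type lungs were at 4.17 and 4.14 with DT, against 4.65 and 4.30 with PBS, and the DT-treated ARF-DTR lungs exceeded the PBS-treated wild type lungs by 0.13 (95% interval -0.47 to 0.74). Ccl5 and Ccl17 were the 2 members whose DT and PBS groups did not overlap, beside 30.5% of all genes.

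Ccl8 averaged 3.29 ± 0.42 in DT-treated and 2.07 ± 1.06 in PBS-treated ARF-DTR lungs (SD, n = 4 each), a difference of 1.21 ± 0.43 (SE) or 2.321-fold, with an adjusted p of 0.04859 in limma. PBS replicate 1, at 3.22, was as high as the DT-treated lungs. The call was lost in 7 of the 8 fits that left out 1 array: without PBS replicate 2, at 0.68, the difference was 0.75 (adjusted p 0.1136), and without DT replicate 4 it was 1.01 (adjusted p 0.1349). The calls of Ccl5 and Ccl6 were each lost in 6 of the 8 fits, with adjusted p up to 0.1156 and 0.09783, and that of Ccl17 in 2 of the 8. The number of members called was 0 to 4 when each array of the 2 groups was left out in turn, and 0 without PBS replicate 3 or without DT replicate 4. It was 1, Ccl17, under quantile normalization, without a filter on dim probes, and when only these 2 groups entered the fit.

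The remaining members did not pass in this comparison. Ccl4 was -1.09 to -0.16 in DT-treated and -1.84 to -0.50 in PBS-treated ARF-DTR lungs, a difference of 0.59 (95% interval -0.01 to 1.18), and Ccl3 was -1.70 to -1.09 and -2.66 to -1.12 in the same groups, a difference of 0.28 (-0.46 to 1.02). Ccl11 differed by -0.10 (-0.51 to 0.30) and Ccl22 by 0.04 (-0.51 to 0.58). Over all 10 members the median difference was 0.71, beside 0.004 over all genes, and 9 were above 0.

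Genes of the surrounding pathways moved in both directions. Of 3 scavenging receptors Ackr2, which takes up and degrades inflammatory CC chemokines, fell (-0.38, adjusted p 0.02071). Of 8 other CC ligands Ccl9 rose (0.56, adjusted p 0.04716) and Ccl1 fell (-0.49, adjusted p 0.02287). The 15 NF-kappaB genes and inducers split, with 3 higher (Relb 0.31, Nfkb2 0.24 and Nfkb1 0.23) and 3 lower (Rel -1.13, Il1a -0.55 and Nfkbiz -0.39). Of 11 type 2 genes Chil3 (0.88, adjusted p 0.007909) and Chil4 (1.11, adjusted p 0.03951), chitinase-like proteins of macrophages and epithelium, rose.

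Some markers of macrophages, dendritic cells and epithelium were higher in the same comparison, and 0 of these lists' genes fell. Below 0 without passing were 2 of 9 alveolar macrophage, 3 of 9 interstitial macrophage and 2 of 8 dendritic cell markers. The summed levels given below overlapped between the groups in the macrophage and dendritic cell lists, but not in the lung epithelial list. Of 9 alveolar macrophage markers 6 rose, among them Ear1 (0.76) and Siglecf (0.85), and the summed linear level of that list was 375.2 to 514.5 in DT-treated and 236.8 to 382.8 in PBS-treated ARF-DTR lungs. Of 9 interstitial macrophage markers 4 rose, among them C1qb (0.79), with sums of 55.66 to 75.32 and 53.96 to 64.84 in these groups. Of 8 dendritic cell markers 4 rose, among them Il12b (1.02) and Fscn1 (0.77), with sums of 13.74 to 19.42 and 12.36 to 18.83. Of 5 lung epithelial markers 4 rose, with sums of 1367 to 1572 in DT-treated and 1030 to 1174 in PBS-treated ARF-DTR lungs. On slide 2 the sums in PBS-treated wild type lungs were 278.5 to 297.5 for alveolar macrophages, 72.90 to 75.78 for interstitial macrophages and 13.37 to 16.90 for dendritic cells. DT-treated wild type lungs had sums of 399.1 to 544.4, 58.33 to 81.73 and 18.57 to 20.92 for these lists. The high alveolar macrophage sum was thus not particular to ARF-DTR lungs given DT. Lung epithelial sums on slide 2 were 1338 to 1491 in PBS-treated and 1327 to 1393 in DT-treated wild type lungs. Both lay above the PBS-treated ARF-DTR lungs of slide 1. The part of these markers in the differences of Ccl5, Ccl6, Ccl8 and Ccl17 was not tested.

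**Figure D2:**
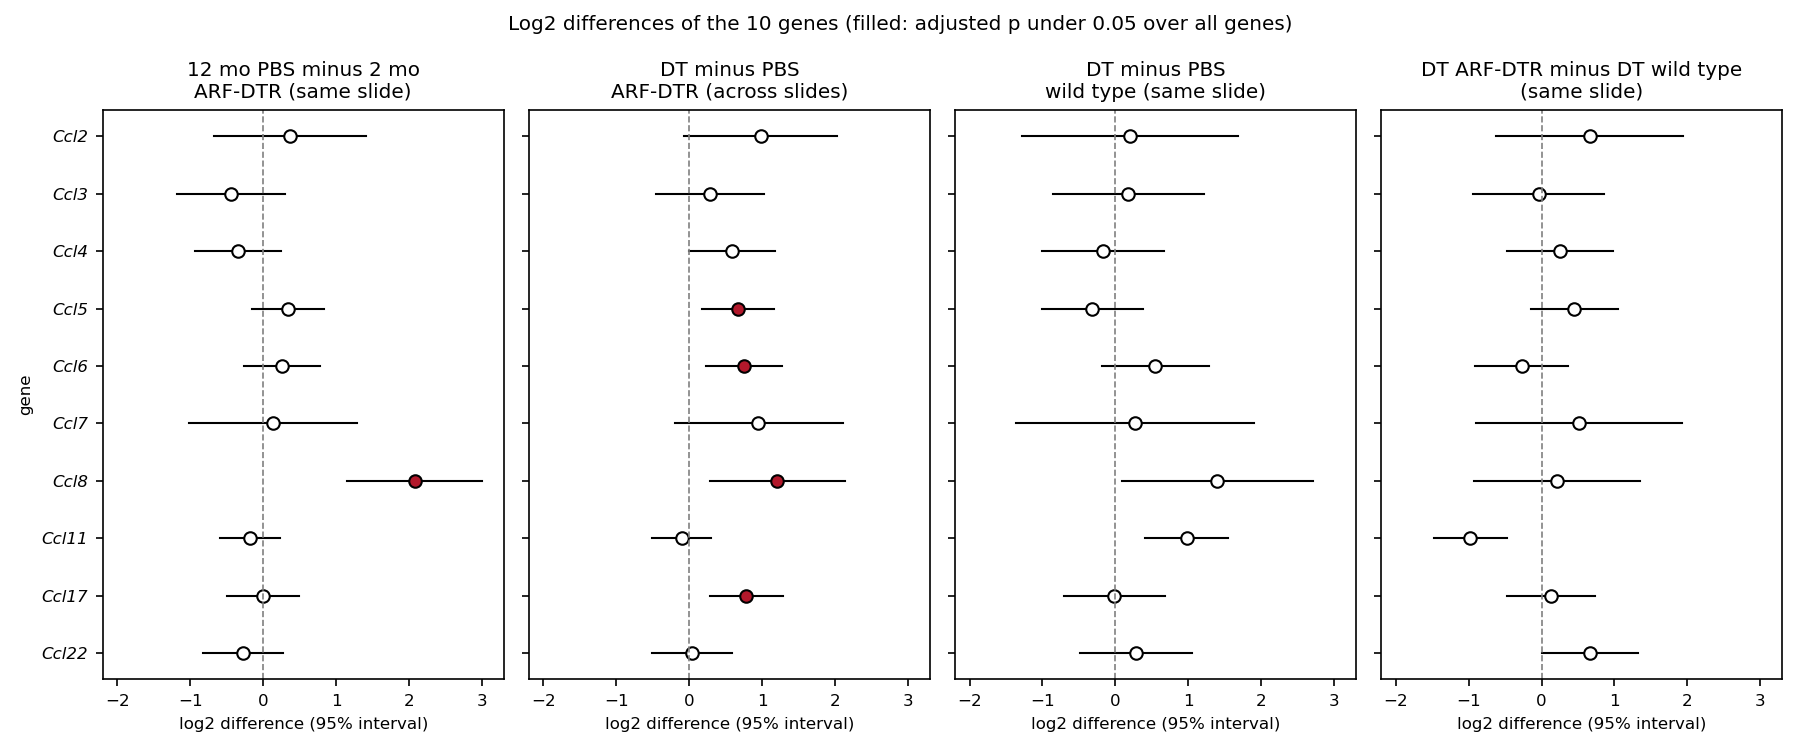
Log2 difference (horizontal axis) of each gene with its 95% interval in 4 comparisons; filled points have an adjusted p under 0.05 over all genes. Ccl8 is filled with age (2.08), 4 genes are filled for DT in ARF-DTR lungs, and 0 are filled in either comparison that involves wild type lungs.

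In wild type lungs, which show the effect of the toxin without the transgene, 0 of 10 members passed the adjusted threshold in limma (smallest adjusted p 0.1546), and 2 had an unadjusted p under 0.05. Among all genes 0.180% passed, with 2 samples a group. The members with the small unadjusted p were Ccl11 and Ccl8. 8 members had DT and PBS samples that did not overlap, beside 43.5% of all genes with 2 against 2 samples. Ccl22 is among these 8, although no wild type array read it well above background, so its separation is not read.

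Ccl11, or eotaxin, was -0.60 and -0.34 in wild type lungs with DT, against -1.48 and -1.42 in wild type lungs with PBS. Both DT-treated wild type lungs were above all 14 other arrays, whose highest value was -0.85. The difference was 0.98 ± 0.27 (SE, 95% interval 0.40 to 1.55), 1.968-fold, with an adjusted p of 0.1546. DT-treated ARF-DTR lungs, in contrast, were at -1.36, -1.62, -1.46 and -1.37. They were 0.98 lower than DT-treated wild type lungs in the other row of the same slide (-0.98 ± 0.23 SE, adjusted p 0.06615). Over 9 other settings of the limma fit the adjusted p was 0.01705 to 0.1572, and it passed in 1, without a filter on dim probes. In that setting 3544 of all genes passed, against 227 in the main fit. The difference between the DT responses of the genotypes was -1.08 ± 0.33 (SE, adjusted p 0.094).

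Ccl8 differed between DT and PBS by 1.40 ± 0.61 (SE) in wild type lungs, 2.644-fold with an adjusted p of 0.3535, beside 1.21 ± 0.43 in ARF-DTR lungs. The difference between these responses was -0.19 (95% interval -1.79 to 1.42, adjusted p 0.9098). Both DT groups had similar levels, 3.29 ± 0.42 in ARF-DTR (n = 4) and 3.08 ± 0.52 in wild type (n = 2), a difference of 0.21 (-0.92 to 1.35).

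For no member did the DT response of ARF-DTR lungs differ from that of wild type lungs past the adjusted threshold in limma, beside 2.10% of all genes, and 2 members had an unadjusted p under 0.05. They were Ccl11, above, and Ccl5, whose DT response was 0.67 in ARF-DTR and -0.32 in wild type lungs, a difference of 0.99 ± 0.39 (SE, adjusted p 0.1738). Ccl17 differed by 0.80 (95% interval -0.05 to 1.65) and Ccl6 by 0.20 (adjusted p 0.8199). These differences use the PBS-treated ARF-DTR lungs of slide 1 and cross the slides. Ccrl2 passed in this comparison, with 0.62 (adjusted p 0.02789).

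The DT-treated ARF-DTR lungs were also set directly beside the wild type lungs of slide 2. These lay in different rows of the slide, so row and genotype cannot be told apart. Against DT-treated wild type lungs 0 members passed in limma, beside 0.888% of all genes, and 1 had an unadjusted p under 0.05, Ccl11. Against PBS-treated wild type lungs 0 passed, beside 5.49% of all genes, and 2 had an unadjusted p under 0.05: Ccl8, 1.62 higher (95% interval 0.48 to 2.75, adjusted p 0.08925), and Ccl22. Ccl22 passed the filter on dim probes only through the ARF-DTR arrays, so nothing is read from its p. In this comparison Ccr8 rose (0.68, adjusted p 0.04555), while Ccrl2 (-0.40, adjusted p 0.02362) and Ackr4, a scavenger of CCL19, CCL21 and CCL25, fell (-1.35, adjusted p 0.01037). Both genotype and treatment differ there.

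Set against 2-month lungs, the DT-treated ARF-DTR lungs had 4 members higher and 0 lower, again Ccl5, Ccl6, Ccl8 and Ccl17, beside 30.8% of all genes changed and 14.8% higher. This comparison shares the DT-treated lungs with the one against PBS, and it too crosses the slides. Ccl8 was 3.29 ± 0.43 (SE) higher, 9.789-fold, with an adjusted p of 0.0001602 in limma. Ccl5 (4.45 to 4.93 with DT, 3.36 to 4.0 at 2 months) differed by 1.01, Ccl6 (5.91 to 6.70 with DT, 5.22 to 5.45 at 2 months) by 1.01, and Ccl17 (1.63 to 2.42 with DT, 0.75 to 1.45 at 2 months) by 0.78. The call of Ccl17 was lost in 3 of the 8 fits that left out 1 array, with a difference down to 0.61 and an adjusted p up to 0.06524. The groups did not overlap in 5 members, these 4 and Ccl2, beside 29.3% of all genes. Ccl2 differed by 1.35 ± 0.48 (SE, adjusted p 0.05063) and by 0.72 (adjusted p 0.06428) without DT replicate 3. It passed when arrays were scaled on their medians (adjusted p 0.03741).

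Upstream sequence from RefSeq (GRCm38.p6) was found for 5 members, and it is shown for the 3 of the 4 genes above that matched, since they were called in both comparisons of the DT-treated ARF-DTR lungs with other ARF-DTR lungs, which share the DT-treated lungs. Within groups they did not vary closely together, with r = 0.16 for Ccl6 and Ccl8, 0.18 for Ccl6 and Ccl17 and 0.25 for Ccl8 and Ccl17 over 16 arrays. Each is the 250 bases before the start of the gene, 5′ to 3′, with motif matches in capitals: TATAAA for Ccl8, and for Ccl17 the STAT motif TTCNNNGAA and its form with a spacer of 4 bases. Ccl8 lies at chr11:82114935-82115184 on the plus strand, Ccl6 at chr11:83593088-83593337 on the minus strand and Ccl17 at chr8:94810203-94810452 on the plus strand.
Ccl8: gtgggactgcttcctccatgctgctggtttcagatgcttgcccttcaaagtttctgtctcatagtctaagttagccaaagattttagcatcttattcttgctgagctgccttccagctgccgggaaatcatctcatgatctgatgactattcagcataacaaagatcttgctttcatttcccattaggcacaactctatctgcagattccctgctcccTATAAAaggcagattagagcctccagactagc
Ccl6: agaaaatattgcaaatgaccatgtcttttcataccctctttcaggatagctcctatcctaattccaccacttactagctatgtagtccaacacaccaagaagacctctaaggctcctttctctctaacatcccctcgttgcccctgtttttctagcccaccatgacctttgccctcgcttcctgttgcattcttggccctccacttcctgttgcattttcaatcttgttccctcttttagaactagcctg
Ccl17: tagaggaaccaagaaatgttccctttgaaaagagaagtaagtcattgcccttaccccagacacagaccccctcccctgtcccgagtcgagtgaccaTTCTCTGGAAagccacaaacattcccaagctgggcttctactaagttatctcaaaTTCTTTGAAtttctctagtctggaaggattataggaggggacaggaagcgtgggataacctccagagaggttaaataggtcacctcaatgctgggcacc
The TATAAA of Ccl8 began 32 bases before the start, and 12.4% of 32841 promoters hold that motif on either strand. The matches of Ccl17 began 154 and 99 bases before the start, and they belong to the form with 4 spacer bases, held by 5.85% of promoters, and to TTCNNNGAA, held by 7.02%. Ccl6 held none of the 6 motifs searched, which were these 3, NF-kappaB (GGG and CC with 5 bases between, 45.8% of promoters), AP-1 (TGANTCA, 6.75%) and the interferon factor motif (GAAA repeated with 2 bases between, 2.98%), each on both strands. The window of Ccl22 held 2 matches to the NF-kappaB motif, and that of Ccl3 held no match. The 3 genes shown had no motif of these in common, and the matches are letters in a window, not binding sites.

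Ccl22, the other CCR4 ligand, was dim. It was -3.99, -4.82, -5.34 and -4.01 in DT-treated ARF-DTR lungs, -4.30, -4.66, -4.64 and -4.71 in PBS-treated and -4.13, -4.46, -4.57 and -4.07 in 2-month ARF-DTR lungs. None of the wild type arrays read it well above background, and its values there, -5.32 and -5.09 with DT and -5.39 and -5.59 with PBS, are bounds rather than levels. For such a group the lowest signal of any probe that counted as well above background on each array stood in for the dim value. Over that stand-in, PBS-treated ARF-DTR lungs read 1.463-fold against PBS-treated wild type lungs. DT-treated ARF-DTR lungs read 1.503-fold against PBS-treated and 1.293-fold against DT-treated wild type lungs. The stand-in comes from other probes, so these ratios are not lower limits, and no genotype difference is read from them. The limma tests belong to the measured values, not to these ratios, and gave adjusted p of 0.04903, 0.09029 and 0.3222 in that order. Under PBS, Ccl22 was the 1 member of 10 called between genotypes, beside 23.6% of all genes changed and 10.9% higher. It passed the filter on dim probes only through the ARF-DTR arrays, so nothing is read from that call. The genotype call crosses the slides and was lost whichever array was left out, and with the normexp background correction the difference was -0.14 (adjusted p 0.3986).

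Ccl2 and Ccl7, the monocyte-drawing CCR2 ligands, passed in none of the 8 comparisons, but 1 lung stood apart in both. Ccl2 was -0.40, -0.48, 2.10 and -0.37 in DT-treated ARF-DTR lungs, -0.02, -0.79, -1.28 and -0.97 in PBS-treated and -1.12, -1.66, -1.01 and -0.74 in 2-month ARF-DTR lungs. Ccl7 was -1.78, -1.46, 0.93 and -1.39 with DT, -0.82, -1.74, -2.50 and -2.44 with PBS, and -1.72, -2.81, -1.84 and -1.68 at 2 months. DT replicate 3 was above every other array in both genes. It exceeded the mean of the other DT-treated lungs by 2.51 in Ccl2 (5.707-fold) and by 2.48 in Ccl7 (5.562-fold), the ranks 22 and 23 among the rises of 25576 genes in that lung. The 10 spots of Ccl2 on that array read 2.03 to 2.17, so the value was not that of a single spot. Wild type lungs were at -0.43 and -0.46 for Ccl2 with DT and -0.76 and -0.53 with PBS, and at -1.44 and -1.43 for Ccl7 with DT and -1.80 and -1.61 with PBS.

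The DT-against-PBS difference in ARF-DTR lungs was 0.98 (95% interval -0.07 to 2.03) for Ccl2 and 0.95 (-0.20 to 2.11) for Ccl7. Without DT replicate 3 it was 0.35 (adjusted p 0.3535) and 0.33 (adjusted p 0.5528). Other genes high in that lung, named after their values were seen, were Prg4 (lubricin of joint and serosal surfaces, 4.51 above the mean of the others), Saa3 (acute-phase serum amyloid, 4.13), Saa1 (2.73), Has1 (a hyaluronan synthase, 2.71), Cxcl1 (1.34), Il6 (1.19) and Ccl12 (a further CCR2 ligand of the mouse, 1.06). DT replicate 3 was the highest of the 4 lungs in 6 of 8 monocyte markers and lowest in 0, with a median difference of 0.28, and in 1 of 6 neutrophil markers, with a median of 0.03. It was also highest in 7 and lowest in 1 of 9 alveolar macrophage markers (median 0.29), and highest in 6 and lowest in 1 of 9 interstitial macrophage markers (median 0.48). It was highest in 5 of 7 NK cell markers (median 0.30) and 4 of 5 mast cell and basophil markers. Other lists went the other way: dendritic cell 2 highest and 3 lowest of 8 (median -0.17), T cell 1 and 2 of 7, and lung epithelium 0 and 2 of 5. Such counts were not taken over all genes, so no excess is read from them. The part of those markers was not tested. Of the other members DT replicate 3 was also the highest DT-treated lung in Ccl3, Ccl4, Ccl5 and Ccl6 and the lowest in Ccl22.

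**Figure D3:**
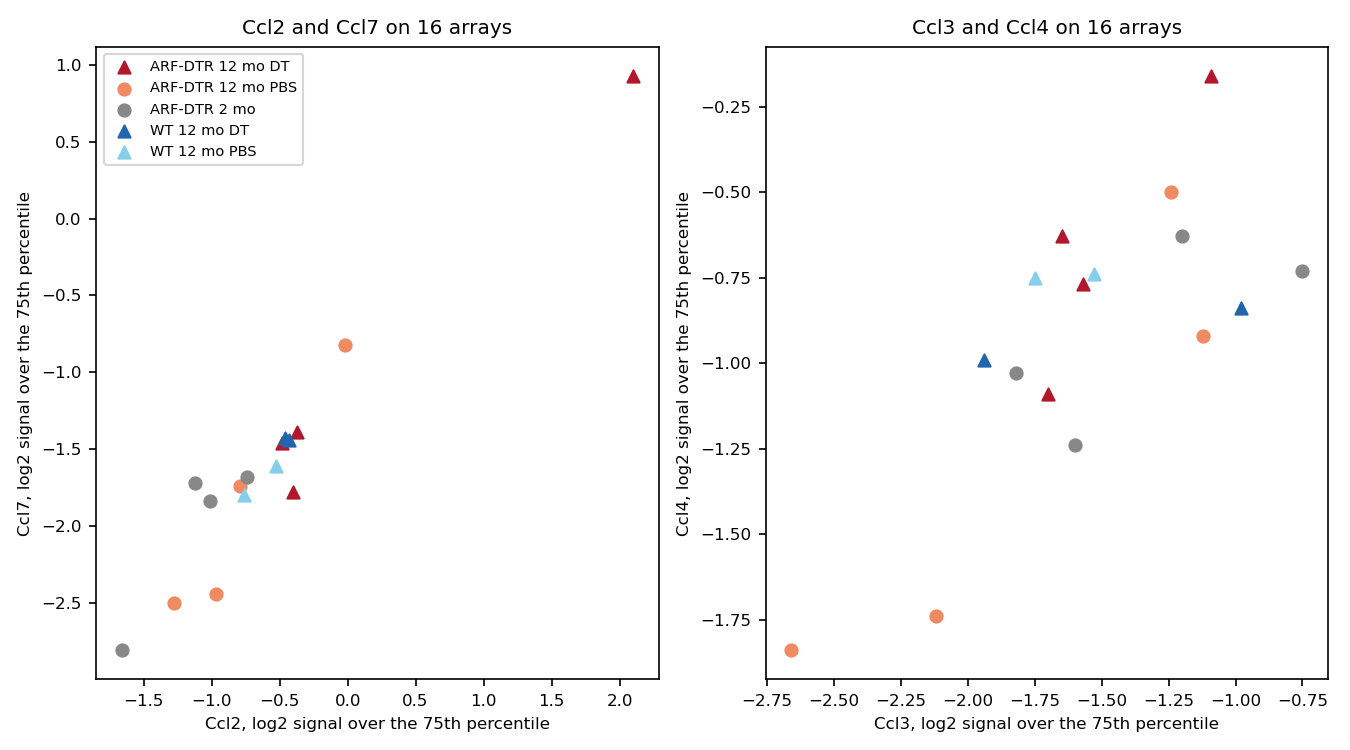
Level of Ccl7 against Ccl2 (left) and of Ccl4 against Ccl3 (right) on 16 arrays, both axes in log2 signal over the 75th percentile, coloured by group (circles slide 1, triangles slide 2). Ccl2 and Ccl7 lie along a line, with DT replicate 3 at 2.10 and 0.93, and Ccl3 and Ccl4 follow each other more loosely.

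The members were then compared array by array, after removing the mean of each group, which also removes any difference between slides. Of 45 pairs, Ccl2 and Ccl7 were the 1 pair that passed, with r = 0.97 and rho = 0.91 over 16 arrays (exact permutation within groups, p = 0.0006872 and 0.001049, adjusted 0.03092 and 0.0472). Without the 2 arrays farthest from the median, DT replicate 3 and PBS replicate 1, r was 0.91. Ccl3 and Ccl4 had r = 0.81 and rho = 0.86 (exact permutation, p = 0.005371 and 0.004015, adjusted 0.08463 and 0.09034), and r was 0.75 without 2 arrays. Ccl4 and Ccl5 had r = 0.78 and rho = 0.68 (exact permutation, p = 0.005642 and 0.006764, adjusted 0.08463 and 0.1015), and r was 0.62 without 2 arrays. The CCR4 ligands Ccl17 and Ccl22, next to each other on chromosome 8, had r = 0.59 and rho = 0.64 (exact permutation, p = 0.02989 and 0.02271, adjusted 0.3363 and 0.2555).

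Other neighbours on chromosome 11 had lower values. Ccl2, Ccl7, Ccl11 and Ccl8 are neighbours in 1 cluster, and Ccl8 had r = 0.16 with Ccl2, 0.17 with Ccl7 and 0.01 with Ccl11. In the second cluster Ccl6 had r = 0.07 with Ccl5, 0.48 with Ccl3 and 0.31 with Ccl4.

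**Figure D4:**
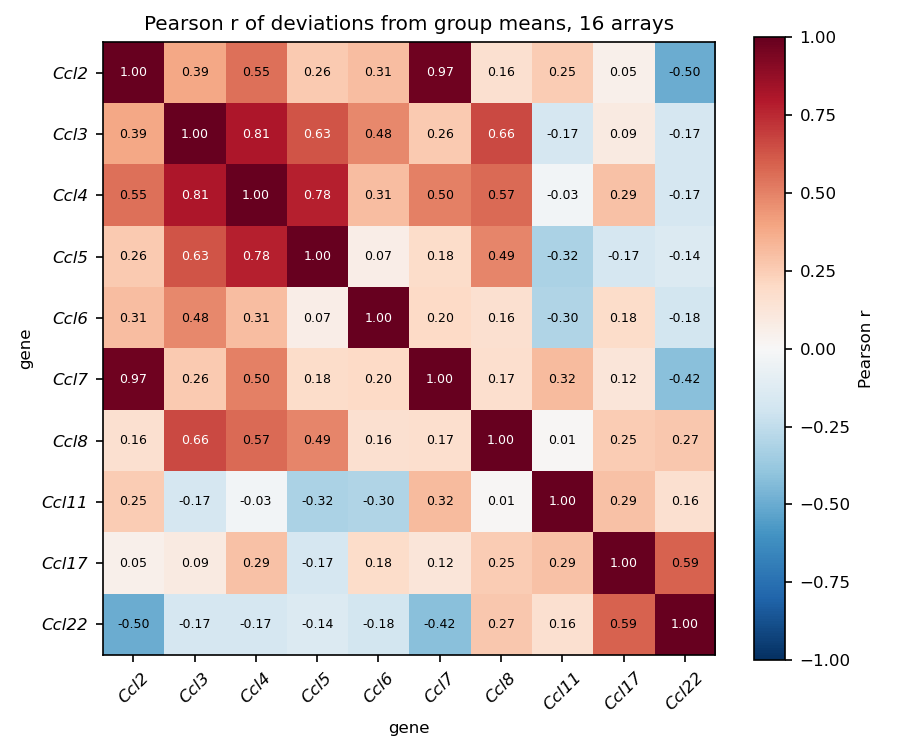
Pearson r between the 10 genes (both axes) over 16 arrays after removing group means; colour and number give r. Ccl2 with Ccl7 (0.97), Ccl3 with Ccl4 (0.81) and Ccl4 with Ccl5 (0.78) are the highest values, and Ccl11 stays between -0.32 and 0.32.

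For each member that passed in some comparison, the 3 genes with the most similar deviations over the 16 arrays were listed. Ccl5 was most like Nkg7 (r = 0.944), a granule protein of cytotoxic lymphocytes, Gm10653 (0.900) and 2610528A11Rik (0.879). The summed level of 7 NK cell markers, with Nkg7 among them, was 18.91 to 33.49 in DT-treated, 12.39 to 25.15 in PBS-treated and 22.06 to 35.00 in 2-month ARF-DTR lungs. Ccl6 was most like Cd200r4 (0.964), Lilr4b (0.958) and Mrc1 (0.952), the macrophage mannose receptor. Ccl8 was most like Cacna1s (0.957), Il21 (0.941) and 4833420D23Rik (0.925), Ccl17 like Gm2a (0.869), Spata5l1 (0.859) and Ccdc117 (0.847), and Ccl22 like Flt3 (0.910), the growth factor receptor of dendritic cells, Rabif (0.906) and Polr3a (0.846). These genes were picked as the highest r among all genes and carry no test.

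Across the 5 groups the order of mean levels differed between members. Ccl8 ran from DT-treated ARF-DTR (3.29) through DT-treated wild type (3.08), PBS-treated ARF-DTR (2.07) and PBS-treated wild type (1.67) to 2-month ARF-DTR lungs (0.00), and of these neighbours only the lowest pair had ranges that did not overlap. Ccl5 was highest in DT-treated ARF-DTR lungs (4.61), followed by PBS-treated wild type (4.47), DT-treated wild type (4.15), PBS-treated ARF-DTR (3.94) and 2-month lungs (3.60), and of these neighbours only the wild type groups did not overlap. Ccl6 was highest in DT-treated wild type lungs (6.61), followed by DT-treated ARF-DTR (6.34), PBS-treated wild type (6.06), PBS-treated ARF-DTR (5.59) and 2-month lungs (5.33), and each neighbour overlapped the next. For Ccl17 the 3 groups of slide 2 (1.91, 1.80 and 1.78) were above both groups of slide 1 (1.13 each), with no overlap between the slides. Ccl11 was highest in DT-treated wild type lungs (-0.47), and the other 4 groups, from -1.17 to -1.45, overlapped each neighbour. Ccl3 and Ccl4 had neighbours that overlapped throughout, with group means of -1.79 to -1.34 for Ccl3 and -1.25 to -0.66 for Ccl4. Ccl2 and Ccl7 shared an order, from DT-treated ARF-DTR (0.21 and -0.92) through DT-treated wild type (-0.45 and -1.44), PBS-treated wild type (-0.64 and -1.70) and PBS-treated ARF-DTR (-0.77 and -1.87) to 2-month lungs (-1.13 and -2.01).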

How the data were processed

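RNA from whole lungs of 16 mouse samples was read on single-colour (Cy3) Agilent arrays, 1 per sample. The deposited array files hold intensity values read with Agilent Feature Extraction 10.10.1.1 (per the submitters' processing notes), with probes placed on mm9 per the file headers; the processed signal in them is background-subtracted and was not scaled between arrays. The authors' deposited series table holds log2 values, which differed from the values computed here by no more than a constant offset per array.

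Groups came from the titles. The free-text description of 1 wild type PBS sample mentions DT and the wild type DT descriptions do not; the title, source name and treatment fields match one another and were used. No label states that samples are separate mice, so the p-values reflect sample-to-sample spread that may be technical.

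Control spots and outlier spots (105 to 171 per array) were left out, and 0 spots were saturated. Spots of a probe were averaged, log2 was taken and the 75th percentile of the array subtracted. A probe was kept when well above background on at least 4 arrays, and the brightest kept probe stood for its gene (25576 genes). Of 55681 probes, 27656 were named by accession and 3722 by symbol or synonym through RefSeq, and 24303 by the file. limma 3.58.1 (R 4.3.3) fitted all 16 arrays with 1 mean per group, followed by eBayes and Benjamini-Hochberg adjustment over all genes; an adjusted p under 0.05 counted as passing, and "rose" and "fell" are used for such genes. Slide could not be fitted as a term, because each group lies on 1 slide. The number of arrays limits the precision. The procedure was tested on simulated data. Deviations of same-numbered samples from their group means correlated at -0.2 to 0.33. This does not settle whether those samples were paired, and the main fit used the numbers as names only. Pairs of members were tested by exact permutation within groups (two-sided). The members and gene lists were chosen with earlier results of these data known. Named genes were all members, the 3 most alike genes of each member that passed, and up to 6 passing genes per list and comparison; 1 gene of those lists is not reported here. Alternatives were array medians, quantile normalization, normexp (offset 50), the authors' table, other filters on dim probes, the mean of probes, a replicate block, only the groups compared, and leaving out each array.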

Additional observations from a re-analysis of the deposited data

Results flagged for a closer look

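Of 30 groups of 4 lungs (10 genes in 3 groups), 5 held a value whose gap to its nearest neighbour, as a share of the range of the group, exceeded Dixon's 95% critical value, which chance passes in about 1 group in 20. Of these values 3 belong to DT replicate 3 of the ARF-DTR lungs, which was the highest of its group in Ccl2 (2.10), Ccl7 (0.93) and Ccl5 (4.93). The 2-month replicate 2 was the lowest of its group in Ccl7 (-2.81), and it also had the lowest Ccl2 of that group (-1.66). PBS replicate 1 of the ARF-DTR lungs was the highest of its group in Ccl22 (-4.30). Ccl2 and Ccl7 varied together (r = 0.97), so their values are not separate observations.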

How the results depend on the processing

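Of the 10 members, the count that passed with age was 0 when only the groups compared were fitted and 1 to 2 when each array was left out in turn (2 without PBS replicate 2). For DT against PBS in ARF-DTR lungs it was 1 with quantile normalization, without a filter on dim probes and with only the groups compared, and 0 to 4 when each array was left out. The genotype comparison under PBS had 0 with array medians, quantile normalization, normexp, no filter on dim probes, the filter on all arrays and the mean of probes, and 0 whichever array was left out; with normexp its Ccl22 difference was -0.14. DT-treated ARF-DTR against DT-treated wild type lungs gave 1 without a filter on dim probes, and against PBS-treated wild type lungs the count was 0 to 1 with each array left out (1 without DT replicate 3, Ccl22, whose wild type values are bounds). The causes were not tested. With the replicate number as a block 1 member passed with age and 3 for DT in ARF-DTR lungs, where Ccl5 was lost (adjusted p 0.06497). For DT in wild type lungs 0 passed, and for DT against 2 months 4 passed. Deviations of same-numbered samples correlated at -0.2 to 0.33, which does not settle whether those samples were paired.

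Counts over all genes moved more than 1.5 times as follows. Age gave 1572 genes and 960 with only the groups compared, and 920 to 1776 with each array left out. DT in wild type lungs gave 46 genes, 28 with array medians, 20 with normexp, 26 with the filter on all arrays, 0 with only the groups compared, and 74 to 232 with each array left out. The difference between DT responses gave 538, 1946 with normexp, 288 without a filter, and 226 to 1109 with each array left out. DT-treated ARF-DTR against DT-treated wild type lungs gave 227, 122 with normexp, 3544 without a filter, 90 with the replicate block, 6 with only the groups compared, and 78 to 298 with each array left out. Against PBS-treated wild type lungs it gave 1403, 368 with only the groups compared, and 202 to 1245 with each array left out. The genotype comparison under PBS gave 2318 to 5760 with each array left out. The median log2 difference over all genes was -0.025 (age), 0.004 (DT in ARF-DTR), 0.036 (difference between responses) and -0.023 (genotype) in the main fit. With array medians it was -0.116, 0.183, 0.144 and -0.115 in that order. With normexp it was 0.118 (difference between responses) and -0.118 (genotype). The slide as a block could not be fitted. Signal over background limits Ccl22 in wild type lungs to a bound.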
